A study of Caenorhabditis elegans with 24 samples.

Results

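The 6 arrays described here, of 24 in the series, compared 4-cell embryos of the Caenorhabditis elegans strain HC445 whose mothers had lived at 25 °C with HC445 embryos whose mothers had lived at 20 °C. They were chosen by their titles alone, as the 3 arrays of HC445 with mothers at 25 °C and the 3 of HC445 with mothers at 20 °C in generation 2. In all 6 samples the grandparents had lived at 20 °C, the worms had eaten a sporulation-defective Bacillus subtilis strain instead of the usual Escherichia coli, and the genotype was sid-1(qt9) with haf-6 suspected to be lost as well. Each sample was a pool of 50 embryos, its RNA was amplified by repeated in vitro transcription and labelled with Cy3, and each array took 1 sample. The other 18 arrays held the wild-type strain N2 under the same temperatures and a further generation of both strains, whose mothers were back at 20 °C and whose grandparents had lived at 20 °C or at 25 °C.

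A 4-cell worm embryo transcribes little of its own genome. Most of its messenger RNA was made in the mother's germline and loaded into the egg, so that it carries a record of the mother's conditions. The temperature of 25 °C lies near the upper end of the range in which the species breeds well. sid-1 encodes a membrane channel through which double-stranded RNA enters cells and spreads RNA interference through the animal and into its progeny. haf-6 encodes an ABC transporter that has been linked to RNA interference. With haf-6 suspected to be lost beside sid-1 and no second sid-1 strain, the effects of either gene cannot be told apart.

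The array carried 1 probe for each of 15208 genes, named by WormBase gene ID. The files and the gene table used here do not pair these IDs with gene names (0 of 15208 matched), so at most 2 genes in each direction are given, by ID. For the same reason sid-1, haf-6, the markers of 4-cell and older embryos and the heat shock, lipid and RNA interference gene lists could not be looked up, and neither the genotype nor the embryonic stage was checked on the arrays. Of these, 11637 probes were tested, those with signals well above background throughout at least 1 of the 8 groups. On the 6 arrays, 10485 to 11624 probes were well above background after 20 °C mothers and 11200 to 12510 after 25 °C mothers, so these numbers overlapped. Over the tested probes the correlation between arrays was 0.978 to 0.984 within the 20 °C group, 0.980 to 0.984 within the 25 °C group and 0.966 to 0.982 between the groups. Precision is limited by having 3 arrays in each group.

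The 6 arrays lay on 6 different slides and were scanned on 3 days, with replicate numbers following the days, so each 25 °C array had a 20 °C partner scanned with it. The 2 arrays that stood apart both carry a note on the spike-in control RNA. For replicate 1 of the 20 °C group the labels suspect a spike-in concentration 10x that of most arrays, and the mean log2 intensity of all 10 spike-in probes was 15.3 there, 4.35-fold over the other 2 arrays of its group. For replicate 3 of the 25 °C group they state it, and the value was 15.7, which was 3.56-fold over the other 2. On that second array 1976 dim probes shared the lowest processed value, which makes low values there a floor, and its slide held 4 arrays, all from 25 °C groups of either generation.

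The main question was which messenger RNAs of the HC445 embryo differed with the temperature of the mother. Many did, in both directions. Of the 11637 genes, 1132 (9.73%) passed the threshold in the fit that pairs the arrays by scan day (limma, adjusted p under 0.05 by Benjamini-Hochberg). After 25 °C mothers 494 (4.25%) rose and 638 (5.48%) fell. Without the pairing the count was 591 (5.08%), with 273 rises (2.35%) and 318 falls (2.73%), and all 591 were among the 1132. Without both spike-in noted arrays of the comparison it was 509 (4.37%), 225 higher and 284 lower, of which 488 were among the 1132. With slide as a fixed block, which leaves 3 residual degrees of freedom, 2 genes passed. Signals were scaled to the 75th percentile of each array, so a change is relative to the other messages, and fewer cells holding a message and less of it per cell cannot be told apart in pooled embryos.

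The changes were mostly of moderate size. The median log2 fold change was 0.98 among the genes that rose (1.97-fold) and -1.02 among those that fell (2.02-fold), against -0.078 over all genes tested. At least 2-fold changes were found for 243 of the rises and 323 of the falls, at least 4-fold changes for 60 and 96, and at least 8-fold changes for 11 and 28. The smallest changes that passed were 0.29 and -0.24 on the log2 scale, and the largest were 5.28 and -4.62. For comparison, the median SD of a gene over the 3 arrays of a group was 0.26 after 20 °C mothers and 0.29 after 25 °C mothers.

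The balance of rises over falls moved with the scaling and with the arrays fitted. Rises were 43.6% of the calls with each array scaled to its 75th percentile, and 58.6% with quantile normalization (1155 calls, 9.93%, 677 higher and 478 lower), which moved the median change of all genes from -0.078 to 0.0084. The deposited series values gave 676 higher and 482 lower (9.95% of genes), and normexp background correction followed by quantile normalization 639 and 445 (9.32%). With the scaling kept, rises were 50.4% of the calls on the 6 arrays alone, 49.7% on the generation 2 arrays and 35.8% without replicate 3. None of the 1132 genes changed sign under the 3 other normalizations, and 950, 953 and 871 of them passed again. These settings are not independent of each other. Quantile normalization was used with and without normexp, and the deposited values gave nearly the same counts as quantile normalization alone.

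Genes of the middle level class changed most often. The genes tested were split by their mean signal over all 24 arrays into 3 classes of 3879. The middle class held 325 of the rises and 371 of the falls (8.38% and 9.56% of the class). The high class, the probes of brightest signal, held 104 rises and 155 falls (2.68% and 4.00%), and the low class 65 and 112 (1.68% and 2.89%). The sizes ran the other way. In the low class the median rise was 2.01 and the median fall -2.14 on the log2 scale, in the middle class 1.07 and -1.04, and in the high class 0.47 and -0.44, where only 2 rises and 3 falls reached 2-fold. The standard error moved with the class, with a median of 0.58 in the low, 0.25 in the middle and 0.11 in the high class. A gene passes only if its change is large against its standard error, so small changes in the low class could not pass. All 65 rises and 112 falls of that class were at least 2-fold. The sizes of the calls therefore do not compare the classes, and the part of the standard error in the class counts was not tested. The plot of change against level shows the calls along both edges of the cloud.

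**Figure D1:**
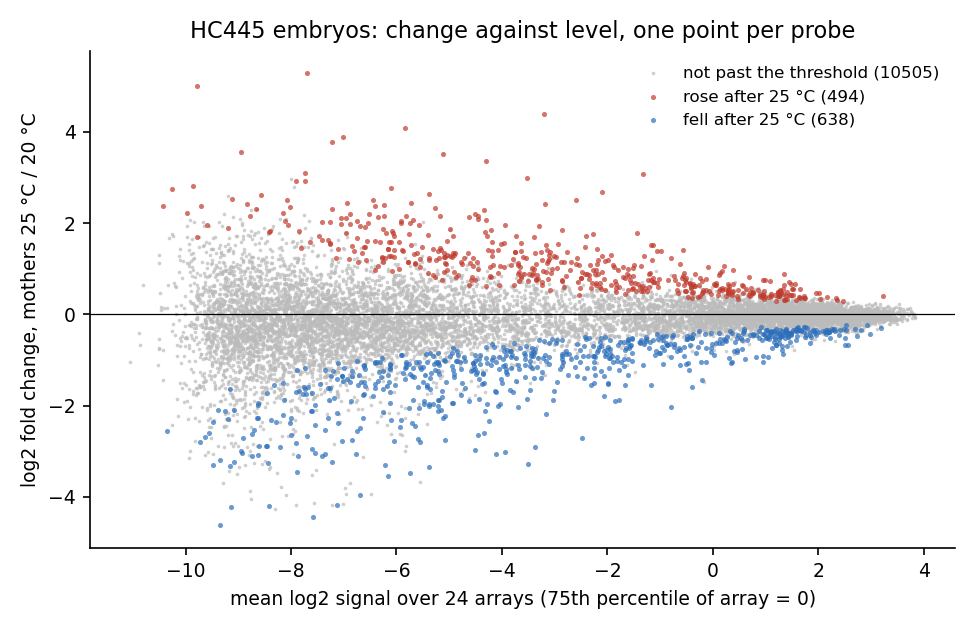
Log2 fold change after 25 °C against 20 °C mothers in HC445 (vertical) against the mean log2 signal over all 24 arrays (horizontal, 0 is the 75th percentile of an array), one point per tested probe. The 494 genes that rose are red and the 638 that fell are blue, and the spread of the grey points widens towards low signals.

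Most calls concerned genes that were measured on both sides, which also holds for most genes tested. Of all 11637 tested, 9407 were well above background on all 6 arrays. Of the rises, 454 were well above background on all 6 arrays, 13 were so on all 3 arrays after 25 °C mothers and on none after 20 °C mothers, and 27 had mixed detection. Of the falls, 565 were well above background on all 6 arrays, 3 were so on all 3 arrays after 20 °C mothers and on none after 25 °C mothers, and 70 were mixed. For the 13 rises the 25 °C level was set against the detection limit, taken per 20 °C array as the lowest signal of any detected probe, or as the signal of the gene in question if higher. By this bound 7 of them were at least 2-fold and 3 at least 4-fold higher, the largest at least 8.86-fold, and 1 had no fold above 1. The 3 falls were all at least 2-fold lower, and the largest was at least 6.07-fold lower. For 16 of the 638 genes that fell, the 25 °C value of replicate 3 sat at the array's floor, so that their size is set partly by it.

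Detection alone, without the test, was uneven. Among all genes tested, 124 were well above background on all 3 arrays after 25 °C mothers and on none after 20 °C mothers, and 7 showed the reverse. On the N2 arrays of generation 2 the same counts were 11 and 41, and 2 of the 124 and 0 of the 7 behaved alike there. Of the 124, 13 were among the rises that passed the test. On all 3 arrays of a group, 10 of the 124 were well above background in N2 after 25 °C mothers, 10 in HC445 after 20 °C grandparents and 23 in HC445 after 25 °C grandparents, and 31 were so on no N2 array after 20 °C mothers. No share over all genes tested stands beside these counts, so they are a description and cannot be read as low or high. The number of probes above background also differed between arrays, as given above, and its part in these counts was not tested.

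The partner arrays of each scan day gave the same picture. Across the genes that rose, the median log2 difference between partners was 0.92 in replicate 1, 0.94 in replicate 2 and 0.99 in replicate 3, and every rise with a value was positive in each pair (493 of 493 in each). Across the falls it was -0.95, -1.09 and -0.85, with 630 of 630, 635 of 635 and 633 of 637 negative. Over all genes tested it was -0.096, -0.10 and -0.028. The 3 arrays of each temperature did not overlap for 461 of the 491 rises with all 6 values and for 578 of the 626 falls. Over all 11237 probes with 6 values, 9.60% lay entirely above and 13.3% entirely below. The same arrays had picked these genes, and a gene picked that way tends to repeat on them.

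Genes were therefore also picked without the arrays of 1 scan day and read on the pair left out. Without replicate 2, 165 genes rose (1.42%) and 193 fell (1.66%), and in the left-out pair 164 of 165 rises and 190 of 191 falls with a value had the same sign, with median differences of 1.25 and -1.27. Without replicate 1, 175 rose (1.5%) and 264 fell (2.27%), and 165 of 175 and 209 of 261 had the same sign, with medians of 1.03 and -0.89. Without replicate 3, 297 rose (2.55%) and 533 fell (4.58%), and 288 of 297 and 454 of 532 had the same sign, with medians of 0.92 and -0.53. Over all genes, 41.9%, 42.6% and 47.2% of the differences in pairs 1, 2 and 3 were positive. The rises thus repeated in 94.3% to 99.4% of cases. The falls repeated in 99.5% of cases in pair 2 but in 80.1% in pair 1 and 85.3% in pair 3, the pairs that hold the arrays with a spike-in note, whose part in this was not tested.

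**Figure D2:**
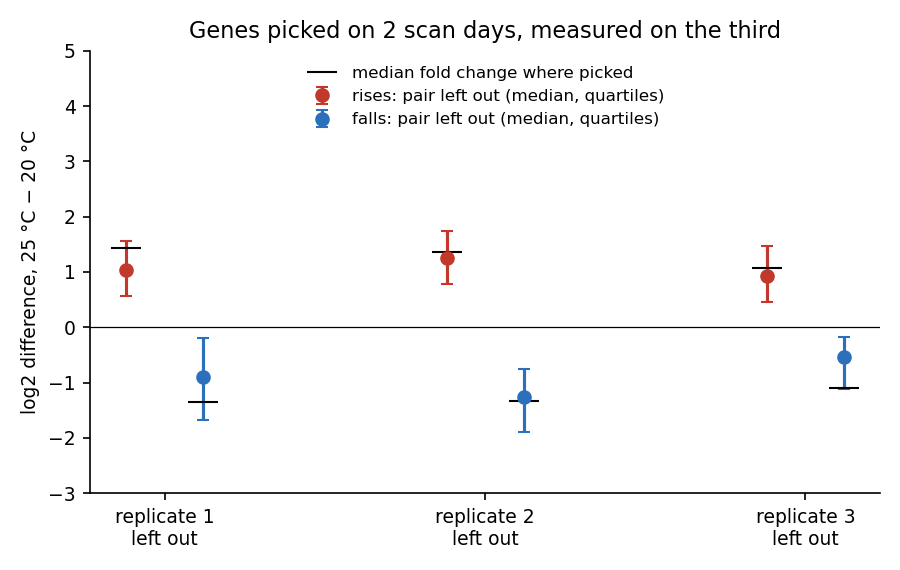
Log2 difference between the 25 °C and the 20 °C array of the scan day left out (vertical), for genes that passed the threshold on the other 2 scan days. Points are medians and bars the quartiles over genes, and short black lines the median log2 fold change in the fit that picked them. All 6 medians keep the direction of the pick, and the falls read on replicate 3 are the smallest, at -0.53 against -1.1.

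The rises and falls given by ID were the largest changes among genes that were well above background on all 6 arrays and moved the same way in all 3 pairs, a condition met by 452 rises and 554 falls. None of these probes was saturated. All values are log2 signals, with 0 at each array's 75th percentile.

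WBGene00019611 rose most. Its log2 signal was -5.26, -5.29 and -5.31 in replicates 1, 2 and 3 after 20 °C mothers, and -0.97, -1.11 and -0.61 after 25 °C mothers. The groups lay far apart, and the 20 °C arrays hardly differed from each other. On the log2 scale this was a change of 4.39 ± 0.28 (SE), or 20.9-fold (limma adjusted p = 1.32e-08, and 8.56e-08 without the pairing). It was the probe of the 4 that passed the threshold in all 24 refits, with adjusted p of at most 0.00221.

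WBGene00018577 came second among the rises. Its log2 signal was -7.46, -7.87 and -6.96 after 20 °C mothers and -3.28, -3.85 and -2.92 after 25 °C mothers. Both groups had their lowest value in replicate 2 and their highest in replicate 3, so the differences between partners, 4.18, 4.02 and 4.04, were closer to each other than the levels. The log2 fold change was 4.08 ± 0.44 (SE), or 16.9-fold (limma adjusted p = 8.12e-06, and 0.000324 without the pairing).

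WBGene00017565 fell furthest. Its log2 signal was -5.13, -4.65 and -5.46 after 20 °C mothers and -8.14, -8.23 and -8.95 after 25 °C mothers, with the 25 °C array of replicate 3, which has the floor, the lowest of the 6. The log2 fold change was -3.35 ± 0.35 (SE), a 10.2-fold lower signal (limma adjusted p = 7.28e-06, and 1.48e-05 without the pairing).

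WBGene00020504 was the next largest fall. Its log2 signal was -6.03, -5.34 and -5.58 after 20 °C mothers and -8.87, -8.55 and -9.42 after 25 °C mothers. The groups did not overlap, and the differences between partners were -2.84, -3.21 and -3.83. The log2 fold change was -3.29 ± 0.56 (SE), a 9.81-fold lower signal (limma adjusted p = 0.000616, and 0.00193 without the pairing). The plot of these 4 probes sets the 6 arrays beside the other 18.

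**Figure D3:**
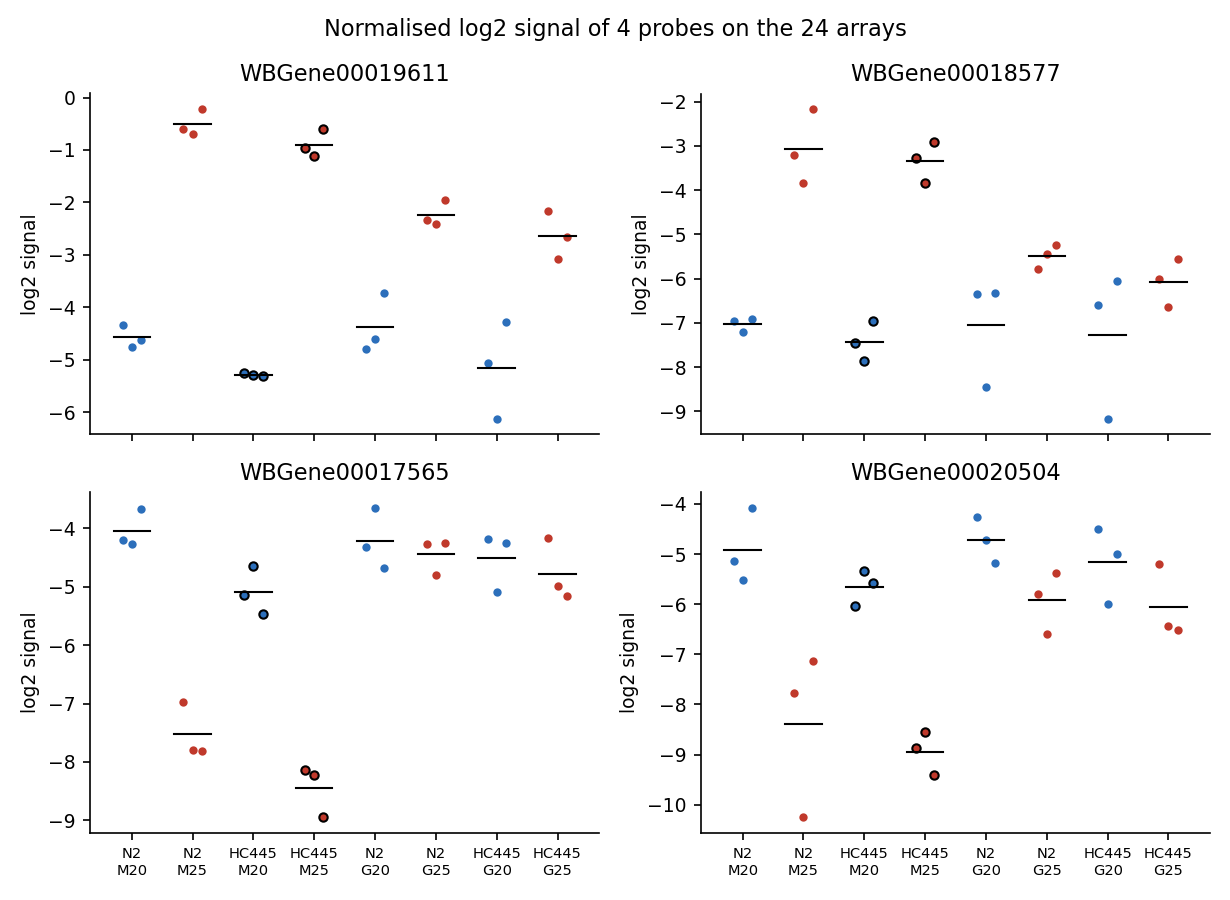
Log2 signal (vertical, with 0 at each array's 75th percentile) of 4 probes in the 8 groups (M20 and M25, mothers at 20 °C or 25 °C; G20 and G25, grandparents at 20 °C or 25 °C). Points are arrays in the order of replicates 1, 2 and 3, lines are group means, red marks 25 °C, blue marks 20 °C, and black outlines mark the 6 arrays of the HC445 comparison, whose groups are separate for all 4 probes.

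The arrays of N2 embryos share no array with the HC445 comparison and show how the HC445 genes behaved in the wild type. They moved the same way there. The 494 HC445 rises had a median log2 fold change of 0.83 in N2 (quartiles 0.44 and 1.3), with 487 of 494 positive, and the 638 falls had one of -0.87 (quartiles -1.40 and -0.44), with 632 of 638 negative. Over all genes tested the N2 median was -0.056, with 43.9% positive. In N2 alone 1303 genes passed (11.2%), 528 of them higher (4.54%) and 775 lower (6.66%). The shared rises, 327, were 66.2% of the HC445 list and 61.9% of the N2 list, and the shared falls, 409, were 64.1% and 52.8%. Without the pairing 636 genes passed in N2 (5.47%), 247 higher (2.12%) and 389 lower (3.34%). The 176 rises shared in that fit were 64.5% of the HC445 and 71.3% of the N2 list, and the 214 shared falls 67.3% and 55%. In either fit no gene passed in opposite directions in the 2 strains. Within each fit both comparisons used the same spread per gene, so the 2 lists are not independent and a gene of small spread passes more easily in both. The strains were scanned on the same days, and in replicates 2 and 3 the 25 °C arrays of both strains lay on the same slide. The N2 arrays after 25 °C mothers carry a spike-in note in replicates 1 and 3, and those after the cooler mothers carry none. On the N2 25 °C array of replicate 3, 1518 dim probes shared the lowest value, as 1976 did on the HC445 25 °C array of that replicate. The parts of the slide, the note and this floor in the agreement were not tested.

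The HC445 genes that did not pass in N2 had smaller changes there, which picking genes that passed in 1 strain and not in the other favours by itself. They numbered 396, of which 383 had the HC445 sign in N2, and their median log2 change was 0.38 towards the HC445 direction against 0.76 in HC445, where they had been picked. The test of the difference itself (HC445 change minus N2 change) found no gene (0 of 11637, 0%; limma, Benjamini-Hochberg), and 385 had an unadjusted p under 0.05 where 581.85 would be expected with no difference. Among the 396 genes, 41 had an unadjusted p under 0.05. The same selection raises this count, so it does not mark a set of genes particular to HC445. The median SE of the difference was 0.36 and its 95% interval reached a median of 0.74 on the log2 scale to either side. Larger differences did not pass either, since 65 of the 1132 HC445 genes differed by over 1 and the largest by 3.37 on the log2 scale, and a like response of the strains is not shown. With normexp background correction and quantile normalization together 1 gene passed that test (lower in HC445), and with slide as a fixed block 1 gene (higher).

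The 4 probes given by ID changed in N2 by 4.07, 3.95, -3.48 and -3.47 on the log2 scale, in the order in which they were described. For WBGene00019611 the HC445 change exceeded that of N2 by 0.32 on the log2 scale (95% interval -0.50 to 1.14), and for WBGene00018577 by 0.13 (-1.17 to 1.42). For WBGene00017565 the difference was 0.13 (-0.90 to 1.15) and for WBGene00020504 it was 0.17 (-1.48 to 1.82). Every one of these intervals contains 0. In both strains the groups of 3 arrays did not overlap for any of the 4.

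**Figure D4:**
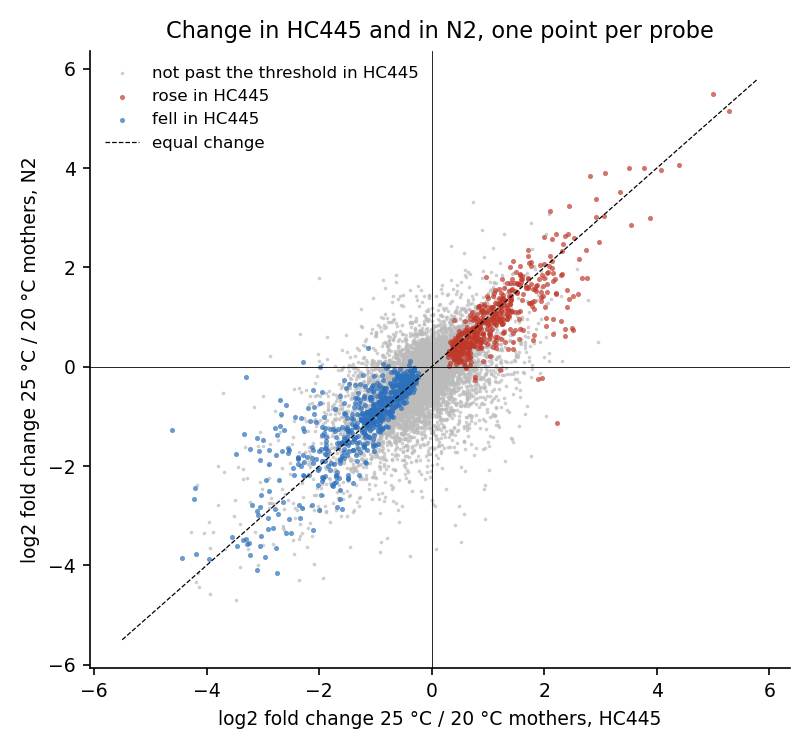
Log2 fold change after 25 °C against 20 °C mothers in HC445 (horizontal) and in N2 (vertical), one point per tested probe, with genes that rose in HC445 in red, those that fell in blue and equal change as a dashed line. Of the 494 rises 487 lie above 0 in N2, and of the 638 falls 632 lie below 0.

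The next generation of HC445 gave a further set of arrays outside the comparison that picked the genes. They had entered the pick only through the spread per gene and the scan day means. There the mothers had returned to 20 °C and only the grandparents had lived at 25 °C or 20 °C. The 494 rises had a median log2 fold change of 0.0092 by grandparental temperature (quartiles -0.16 and 0.18), with 254 of 494 positive, and the 638 falls had one of -0.027 (quartiles -0.26 and 0.093), with 358 of 638 negative. Over all genes the median was -0.0076, with 48.5% positive. For grandparental temperature 17 genes passed in HC445 (0.146%), 3 higher (0.0258%) and 14 lower (0.12%), and without the pairing 10 (0.0859%), 3 higher and 7 lower (0.0602%). In the paired fit all 3 of the higher genes were among the rises of generation 2, where they are 0.607% of the list, and 6 of the 14 lower genes were among its falls (0.940% of the list), while 3 others had risen in generation 2. Arrays of 25 °C groups of both generations lay on the same slide in replicate 3, whose part in this was not tested.

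The change in generation 2 minus that in generation 3 differed for 357 genes (3.07%; limma, adjusted p under 0.05), of which 174 (1.5%) were positive and 183 (1.57%) negative. Without the pairing 112 genes (0.962%) passed. Without the arrays of replicate 1 the count was 22, without those of replicate 2 it was 19 and without those of replicate 3 it was 129. The medians on single arrays are given as a description, since the generation 2 arrays of HC445 had picked these genes. The generation 3 arrays had entered the pick only through the spread per gene and the scan day means. Relative to each gene's mean over the 24 arrays, the median of the HC445 rises was 0.59, 0.66 and 0.64 on the 3 arrays after 25 °C mothers and between -0.32 and -0.28 on the 3 after 20 °C mothers. In generation 3 it lay between -0.26 and -0.14 on all 6 HC445 arrays, whether the grandparents had lived at 25 °C or at 20 °C. For rises and falls alike, the side of 0 on these arrays follows from the centring. Each gene's values average 0 over the 24 arrays, so high values after 25 °C mothers place the remaining arrays lower, and the reverse for the falls. The median of the falls was -0.74, -0.85 and -0.65 after 25 °C mothers, 0.22, 0.26 and 0.17 after 20 °C mothers, and between 0.10 and 0.31 on the 6 arrays of generation 3.

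**Figure D5:**
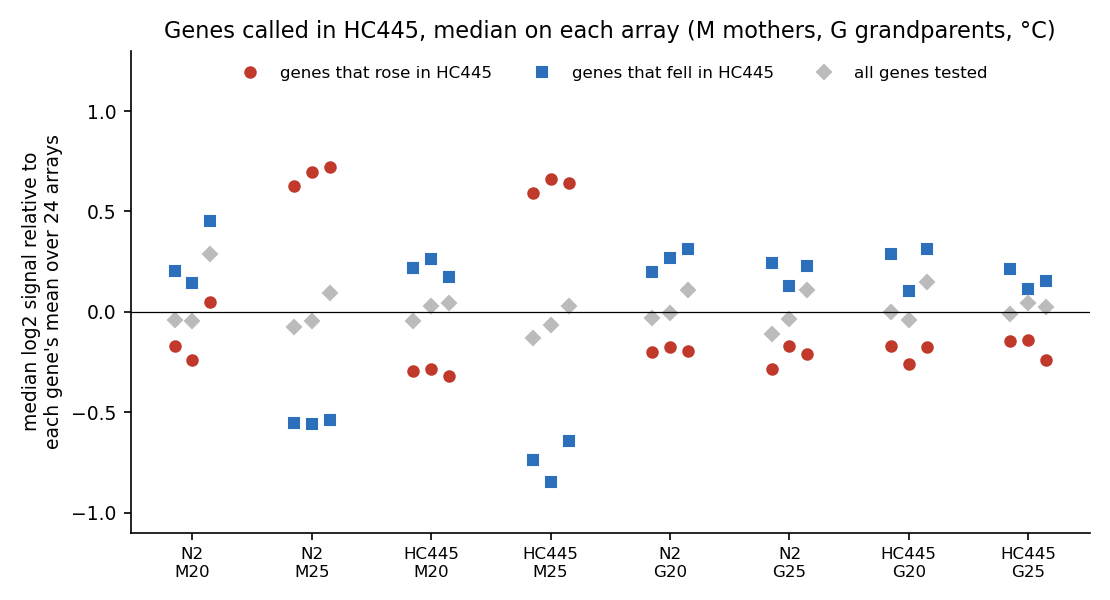
Median log2 signal of the 494 rises (red circles), the 638 falls (blue squares) and all tested genes (grey diamonds) on each array, relative to each gene's mean over the 24 arrays, by group (M mothers, G grandparents, with the temperature in °C). The rises reach 0.59 to 0.66 and the falls -0.85 to -0.65 on the HC445 arrays after 25 °C mothers, the N2 arrays after 25 °C mothers lie on the same sides, and all generation 3 arrays lie with the 20 °C groups. The N2 array of replicate 3 after 20 °C mothers is shifted upwards, with medians of 0.05 for the rises and 0.29 over all tested genes.

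Of the 4 probes, 1 kept a difference that passed in generation 3. WBGene00019611 had log2 signals of -2.17, -3.08 and -2.67 after 25 °C grandparents and of -5.06, -6.13 and -4.29 after 20 °C grandparents, which differ by 2.52 ± 0.28 on the log2 scale (SE; limma adjusted p = 0.000112). The level after 25 °C grandparents lay between those after 20 °C and 25 °C mothers, and the generation 2 change was larger by 1.87 ± 0.39 (SE; limma adjusted p = 0.0111). In N2 the groups of this probe were apart in generation 3 as well. Its log2 signals there were -2.34, -2.42 and -1.95 after 25 °C grandparents and -4.79, -4.62 and -3.73 after 20 °C grandparents, a difference that was not tested. WBGene00018577 had a log2 difference of 1.21 ± 0.44 in generation 3 that did not pass (SE; limma adjusted p = 0.641), and 2 of its 3 arrays after 20 °C grandparents were well above background. WBGene00017565 had one of -0.27 ± 0.35 (SE; limma adjusted p = 0.954), and WBGene00020504 one of -0.89 ± 0.56 (SE; limma adjusted p = 0.861). For the former of these falls the change in generation 2 was larger by -3.09 ± 0.49 (SE; limma adjusted p = 0.00162), and for the latter the difference of -2.41 ± 0.79 did not pass (limma adjusted p = 0.114).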

How the data were processed

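Per the file headers, the authors ran Agilent Feature Extraction 9.5.3.1 on each scan and deposited a processed intensity per spot, with flags for spots well above background, saturated or outlying. The correction steps behind that intensity are not stated in the headers read here. In the series table as deposited, every column of log2 values has a median of 9.03, and how the table was made is not given in the labels read here.

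Control spots were left out and outlier spots set to missing (49 to 366 on the 6 arrays). Each processed signal was put on the log2 scale and reduced by its array's 75th percentile. A linear model with the 8 group means and the replicate number as a block was fitted to all 24 arrays (limma 3.58.1, R 4.3.3, eBayes with trend, two-sided, Benjamini-Hochberg over all tested genes). The other 18 arrays added to each gene's spread and the scan day means. Replicate numbers match scan days in the file headers. Deviations from the group means correlated by -0.068, 0.12 and 0.042 between the HC445 partners, and by a median of 0.23 between arrays of different groups on one day (-0.12 on different days). Counts without the block stand beside the main ones. Separate cultures are not stated, so a p-value reflects only how these samples vary, which may be technical. The fit was tested on simulated data with independent noise and scan day effects, which held no slide effect, floor or missing spots.

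The comparison, its lists and tests were chosen with earlier results of these data known. The named genes are the 2 largest rises and falls among genes past the threshold, well above background on all 6 arrays and of 1 sign in 3 pairs. All 33 gene lists, the marker lists and the promoter search needed gene names and were not run. The reading of left-out pairs was added after the data were examined. Alternatives for normalization, filter, block, slide, arrays and weights are given in the closing section, where normexp used the median spot and background intensities as deposited. Figures were drawn with matplotlib 3.10.9.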

Additional observations from a re-analysis of the deposited data

Results flagged for a closer look

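The spike-in control spots, which enter no comparison of genes, were brighter on both noted arrays of the comparison than on the other 4. The mean log2 intensity of all 10 spike-in probes was 15.34 on the HC445 20 °C array of replicate 1, where the labels only suspect a higher concentration, and 15.72 on the HC445 25 °C array of replicate 3, where they state it. It was 13.2 to 14.1 on the other 4 arrays of the comparison, and over the series 15.3 to 15.8 on the 6 noted arrays and 13.2 to 14.4 on the 18 others. The probes differed widely, from 1.00-fold to 13.2-fold over the other arrays of the group in the former case and from 0.998-fold to 7.95-fold in the latter.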

How the results depend on the processing

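Under the alternatives run, none of the 1132 HC445 genes changed sign except with slide as a fixed block, where 51 of 1126 did. The counts of genes past the threshold, with rises and falls, moved as follows. Without the replicate block there were 591 (273 and 318), and for the generation 2 minus generation 3 change 112. With slide as a fixed block, which leaves 3 residual degrees of freedom, there were 2 (2 and 0), with 1 for the difference between strains and 2 for that between generations. With slide as a random block there were 1100 (491 and 609), and 421 between generations. Without the filter on dim probes there were 1052 of 15208 (442 and 610), and 309 between generations. With only probes well above background on all 24 arrays there were 1113 of 8391 (496 and 617), and 386 between generations. With only the 6 arrays there were 476 (240 and 236), and with only the generation 2 arrays 652 (324 and 328). The former gives no value for either difference and the latter none for that between generations. Without all arrays that carry a spike-in note there were 387 (163 and 224), and 63 between generations. Array weights gave 1418 (616 and 802), and 583 between generations. Normexp with quantile normalization gave 1 gene between strains. Leaving out 1 array or 1 scan day gave 358 to 951 genes (165 to 393 rises, 193 to 594 falls), and 19 to 322 between generations. The lowest counts were 358 without replicate 2 and 439 without replicate 1, and for single arrays of replicate 2, 647 (20 °C left out) and 666 (25 °C left out). Settings added after seeing the data were quantile normalization without the replicate block (622, of which 374 and 248, and 123 between generations), no block without the noted arrays (163, of which 64 and 99, and 6), and the block without both noted arrays of the comparison (509, of which 225 and 284, and 145). For the 4 named genes the slide block ended the call of all but WBGene00019611 and turned no sign, with log2 fold changes of 5.55 ± 1.11 (SE; limma adjusted p = 0.382) for WBGene00018577, -2.29 ± 0.81 (0.626) for WBGene00017565 and -2.18 ± 1.56 (0.838) for WBGene00020504. The cause of these shifts was not tested beyond the smaller number of arrays or residual degrees of freedom that some settings leave. Dim probes have a larger error, so small changes of the messages they measure could be missed.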
